A study of Mus musculus with 16 samples.

Results

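The genes described here are 1353 autosomal genes whose start carried an H3K4me3 value above 0 in the induced pluripotent stem cell (iPSC) lines PTC12 and TTF1 and no H3K4me3 value in the lines PTC11 and TTF4. They were chosen on the H3K4me3 values themselves, on having an H3K36me3 value above 0 in the gene body in at least 1 line, and on a name that does not start with XLOC, out of 43984 genes listed, of which 35074 were autosomal and not named XLOC. The choice therefore pairs 1 line of each origin against the other line of each origin, a split that the study did not design, so that the H3K4me3 difference is given as a description with no test. In the other direction, 7 genes had a value in PTC11 and TTF4 and none in PTC12 and TTF1. Throughout, a line or set that lacked H3K4me3 is one with no listed value, which does not show that the mark was absent.

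All lines came from heterozygous mice of one genotype, which combined the SLC34a1-GCE and tdTomato alleles with rtTAROSA (neo-in) and OKMS-250, and were reprogrammed with doxycycline, which switches on Oct4, Klf4, c-Myc and Sox2. The PTC iPSC lines PTC11 and PTC12 came from kidney proximal tubule cells of young adult mice, in which tamoxifen had activated a Cre recombinase driven by the Slc34a1 promoter. The TTF iPSC lines TTF1 and TTF4 came from tail tip fibroblasts, in which Cre was supplied on episomal plasmids. Each line is 1 clone, was maintained on mouse embryonic fibroblast feeder cells and is represented by 1 library per assay for H3K4me3, H3K36me3 and CpG methylation, so that a line and its library cannot be told apart. The 4 H3K27me3 libraries are labelled PTC11 for both PTC libraries, TTF1 and TTF4.

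H3K4me3 is a histone mark of gene starts from which transcription can begin, and it is densest where CpG dinucleotides are frequent and unmethylated. Methylated CpGs are bound by proteins that keep promoters silent, and the enzyme complexes that place H3K4me3 bind CpGs without methylation. H3K36me3 is laid down over the bodies of genes as they are transcribed, and H3K27me3 is placed by Polycomb complexes on repressed developmental genes. In pluripotent cells, many genes of differentiated tissues have starts of intermediate CpG content, where these marks vary.

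The 250 bases before the transcription start site (TSS) are shown for 6 of the genes that span the values found below. Eif4enif1 had the most H3K4me3, Arrdc3 was unmethylated in every line, Pcsk1, Me3 and Nobox differed widely in methylation between lines, and Celf2 was methylated in every line. CpG dinucleotides are in capitals, and the sequence is from the mm10 reference genome, 5′ to 3′ on the strand of the gene. The sites are chr11:3202142-3202391 on the plus strand for Eif4enif1, chr13:80883134-80883383 on the plus strand for Arrdc3, chr13:75089576-75089825 on the plus strand for Pcsk1, chr7:89632142-89632391 on the plus strand for Me3, chr6:43309563-43309812 on the minus strand for Nobox and chr2:7081303-7081552 on the minus strand for Celf2.
Eif4enif1: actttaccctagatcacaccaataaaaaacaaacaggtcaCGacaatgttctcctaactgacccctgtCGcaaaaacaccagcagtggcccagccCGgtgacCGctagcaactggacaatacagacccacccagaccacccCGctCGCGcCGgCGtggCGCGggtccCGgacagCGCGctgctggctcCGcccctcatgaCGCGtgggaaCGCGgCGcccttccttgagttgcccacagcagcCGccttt
Arrdc3: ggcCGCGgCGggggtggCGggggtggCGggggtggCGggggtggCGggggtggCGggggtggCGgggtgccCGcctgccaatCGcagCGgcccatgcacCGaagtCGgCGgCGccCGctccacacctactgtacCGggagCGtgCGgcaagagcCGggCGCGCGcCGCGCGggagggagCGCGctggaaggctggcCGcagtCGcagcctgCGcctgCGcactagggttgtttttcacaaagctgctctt
Pcsk1: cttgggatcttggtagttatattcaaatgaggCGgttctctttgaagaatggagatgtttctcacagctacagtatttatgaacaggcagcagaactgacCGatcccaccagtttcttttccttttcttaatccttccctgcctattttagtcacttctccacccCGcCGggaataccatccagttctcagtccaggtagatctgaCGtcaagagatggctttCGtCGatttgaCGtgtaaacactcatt
Me3: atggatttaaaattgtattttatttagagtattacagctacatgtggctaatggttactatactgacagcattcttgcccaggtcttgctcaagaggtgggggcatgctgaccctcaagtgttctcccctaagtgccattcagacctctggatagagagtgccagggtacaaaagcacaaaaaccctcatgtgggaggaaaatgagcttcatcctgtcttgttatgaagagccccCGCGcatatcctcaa
Nobox: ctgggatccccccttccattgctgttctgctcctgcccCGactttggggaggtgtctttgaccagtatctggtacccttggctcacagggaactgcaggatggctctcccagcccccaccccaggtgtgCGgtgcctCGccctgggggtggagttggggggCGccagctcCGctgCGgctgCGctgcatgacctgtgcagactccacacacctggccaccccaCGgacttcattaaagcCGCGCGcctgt
Celf2: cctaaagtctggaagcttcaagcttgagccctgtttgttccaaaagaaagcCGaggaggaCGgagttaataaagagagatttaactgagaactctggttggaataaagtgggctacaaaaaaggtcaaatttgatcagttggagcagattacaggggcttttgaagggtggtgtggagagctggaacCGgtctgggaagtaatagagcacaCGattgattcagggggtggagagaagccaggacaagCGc

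Among these 6 sequences, Arrdc3 held 33 CpGs, Eif4enif1 21, Nobox 11, Pcsk1 8, Celf2 5 and Me3 2. The median was 6 CpGs in these 250 bases for the 1353 genes and 17 for genes that carried H3K4me3 in every line. At least 1 CpG was present in 97.0% of the 1353 and in 88.3% of 38087 listed genes.

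H3K4me3 of the 1353 genes was low. The values are RPKM, a read density scaled by peak length and library size, with the input level subtracted, averaged by the authors over the peaks from 2 kb before to 3 kb after the TSS. The median was 2.83 RPKM in PTC12 and 2.89 RPKM in TTF1, and 999 genes (73.8%) had a mean of these lines between 2 and 4 RPKM. The 12543 genes with H3K4me3 in all 4 lines and the same other criteria had medians of 3.74, 5.38, 5.79 and 3.75 RPKM in PTC11, PTC12, TTF1 and TTF4. The genes found in PTC12 and TTF1 thus lay at the lower end of what these lines carried, and 18 of them had a mean above 5 RPKM. Between PTC12 and TTF1 the level differed by at most 1.5-fold in 1068 genes (78.9%), with 758 genes higher in TTF1 and 595 higher in PTC12.

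The libraries of PTC11 and TTF4 listed fewer genes and few low values. A value was listed for 15114 genes in PTC11 and 15368 in TTF4, against 19990 in PTC12 and 19448 in TTF1. The 5th percentile of the values above 0 was 2.52 RPKM in PTC11 and 2.34 RPKM in TTF4, and 1.49 RPKM in PTC12 and 1.59 RPKM in TTF1. At genes with H3K4me3 in all 4 lines, the median ratio of PTC11 to PTC12 was 0.690 and that of TTF4 to TTF1 was 0.645. With each value scaled by the median ratio, 83.7% of the 1353 genes would fall below the 5th percentile of PTC11 from their PTC12 level, and 78.0% below that of TTF4 from their TTF1 level. From both lines, 108 genes (7.98%) stayed above both percentiles. Without the scaling, the medians of the 1353 genes, 2.83 RPKM in PTC12 and 2.89 RPKM in TTF1, lay above the percentiles of PTC11 and TTF4. The scaled shares rest on the H3K4me3 values by which the genes were chosen. They were not taken for other genes, so they are given as a description only. The methods state a single number of reads for all ChIP-seq samples, mapped reads per library were not analysed here, and the part of library depth or peak calling in the missing values was not tested.

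**Figure D1:**
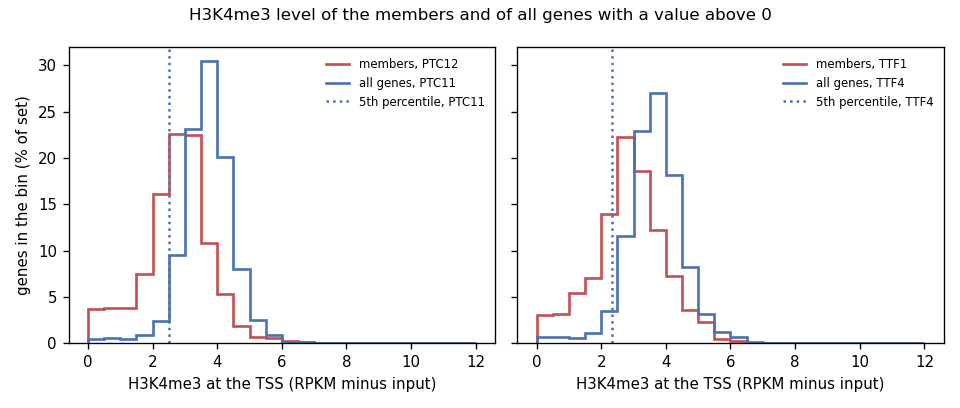
Distribution of H3K4me3 at the TSS (horizontal axis, RPKM minus input) as the percent of genes in each bin of 0.5 RPKM (vertical axis), for the 1353 genes in PTC12 and TTF1 (red) and for all genes with a value above 0 in PTC11 and TTF4 (blue). The dotted lines mark the 5th percentiles of 2.52 RPKM in PTC11 and 2.34 RPKM in TTF4, which lie close to the medians of 2.83 and 2.89 RPKM of the 1353 genes.

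Of all 15682 autosomal genes with H3K4me3 above 0 in PTC12 and TTF1, 8.63% were without a value in PTC11 and TTF4. This share was 47.2% of genes with a mean level up to 1 RPKM, 58.1% from 2 to 3 RPKM, 21.9% from 3 to 4 RPKM and 3.26% from 4 to 5 RPKM. Above 6 RPKM it was 4 of 4849 genes. The share was higher at more methylated genes in each of the 4 lines, including those that carried the mark. Between genes with a fraction up to 0.2 and those above 0.8, it went from 2.43% to 73.3% by methylation in PTC11, from 1.35% to 66.7% by PTC12, from 2.24% to 62.7% by TTF1 and from 0.251% to 49.8% by TTF4. For TTF4, where most of these genes were methylated, the share was also taken within ranges of H3K4me3. From 2 to 3 RPKM the share rose from 17.6% of 131 genes with a TTF4 methylation up to 0.4, through 56.2% of 368 genes, to 72.4% of 416 genes above 0.8. From 3 to 4 RPKM the shares in the same order were 3.17%, 23.6% and 48.8%.

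**Figure D2:**
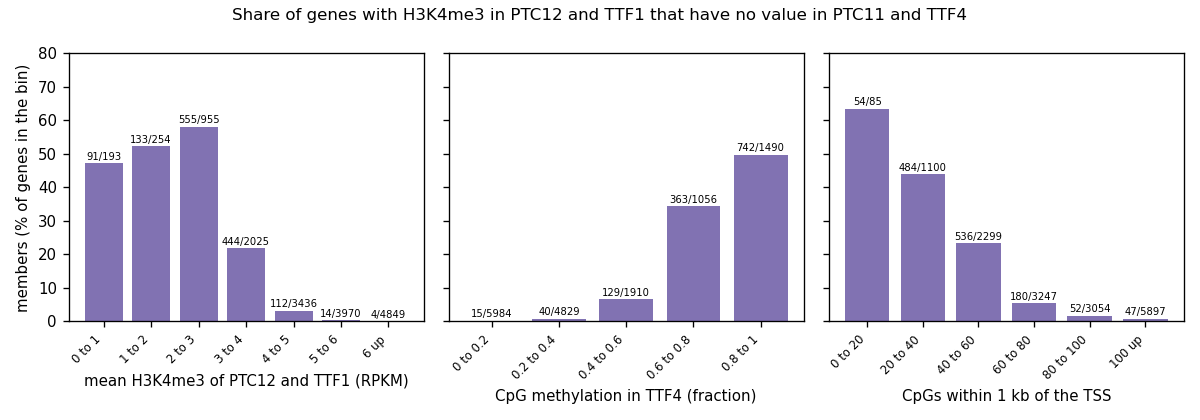
Percent of genes with H3K4me3 in PTC12 and TTF1 that had no value in PTC11 and TTF4 (vertical axis), by mean H3K4me3 of PTC12 and TTF1 in RPKM, by CpG methylation in TTF4 as a fraction, and by the number of CpGs within 1 kb of the TSS. The numbers above the bars are the genes without a value over all genes in the bin, and the share falls from 63.5% of genes with up to 20 CpGs to 0.797% of genes with over 100.

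Eif4enif1, which encodes a carrier of the translation factor eIF4E, had the highest H3K4me3, at 10.4 RPKM in PTC12 and 12 RPKM in TTF1. Its methylation was 0.0185 for PTC11, 0.00154 for PTC12, 0.0640 for TTF1 and 0.0854 for TTF4, low in every line including those without an H3K4me3 value. AC159277.1, a noncoding gene, followed with 6.94 RPKM in PTC12 and 7.70 RPKM in TTF1. St7 had 6.42 RPKM in PTC12 and 7.24 RPKM in TTF1, and had intermediate methylation of 0.470, 0.467, 0.386 and 0.586 in PTC11, PTC12, TTF1 and TTF4. Me3, a mitochondrial malic enzyme, had 5.83 RPKM in PTC12 and 5.33 RPKM in TTF1 with methylation of 0.167, 0.502, 0.60 and 0.961 in the same order of lines. Nmb, the precursor of the peptide neuromedin B, had 5.63 RPKM in PTC12 and 5.38 RPKM in TTF1 and nearly the same methylation in each line, from 0.359 to 0.413. Other genes at the top were Zfp879, Ttc39a and N6amt2, with means between 5.32 and 5.42 RPKM.

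At the other end, the lowest levels were those of 5S_rRNA, Rps12l1, Rps13-ps1 and AC162449.1. Their PTC12 values were 0.00827, 0.202, 0.263 and 0.540 RPKM, and their TTF1 values 0.0119, 0.291, 0.263 and 0.0184 RPKM, and 2 of them are processed pseudogenes. Just outside the threshold, AC107669.1 was listed at 0 in PTC12 with 0.714 RPKM in TTF1, and AC113287.1 had 0.295 RPKM in PTC12 and was listed at 0 in TTF1. Rps10-ps2 had a value of 0.166 RPKM in PTC11, and AL928605.2 one of 0.0206 RPKM in TTF4. Copies of ribosomal genes are frequent among these, and their reads can belong to near-identical copies, so that their values are uncertain. Of the 1353 genes, 203 (15.0%) were annotated as processed pseudogenes, against 0.159% of genes with H3K4me3 in all lines. The share was 14.3% of genes with H3K4me3 in no line and 7.17% of all 25434 autosomal genes with H3K36me3. Protein-coding genes made up 61.3% of the 1353, and 87.5%, 50.3% and 70.4% of those sets in the same order.

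CpG methylation took no part in the choice of the genes. It is the fraction of methylated calls at CpGs within 1 kb of the TSS, read on nanopore sequences and deposited per line without the coverage behind it. In the 1289 genes with a value in every line, the line medians were 0.333 for PTC11, 0.470 for PTC12, 0.343 for TTF1 and 0.831 for TTF4. Genes with H3K4me3 in all 4 lines had medians of 0.0698, 0.100, 0.0706 and 0.212, and genes with H3K4me3 in no line 0.484, 0.648, 0.497 and 0.842. The genes described here were thus intermediate in PTC11, PTC12 and TTF1, while in TTF4 they lay near the genes that had no H3K4me3 in any line.

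The 2 lines without an H3K4me3 value therefore had unlike methylation. TTF4 was the highest of the lines in 1170 of 1289 genes (90.8%), against 74.3% of genes with H3K4me3 in all lines and 5339 of 6675 genes with it in none. The trait was shared with sets that lacked H3K4me3 in TTF4 by other patterns, at 96.6% of genes with H3K4me3 in all lines but TTF4, 88.7% with it in PTC12 alone and 86.1% with it in TTF1 alone. The TTF4 medians of those sets were 0.823, 0.851 and 0.845, close to the 0.831 of the genes described here. PTC11, which had no H3K4me3 value there, was the lowest line in 612 genes, and TTF1, which had one, in 529. These were also the lines most often lowest over all autosomal genes with H3K36me3, at 9956 and 9762 of the 24114 with methylation in every line. A fraction above 0.6 was found for 85.7% of the genes in TTF4, 29.9% in PTC12, 12.6% in TTF1 and 10.8% in PTC11. The median difference between TTF4 and the mean of the other lines was 0.391, against 0.113 in genes with H3K4me3 in all lines and 0.280 in genes with it in none. It was larger, 0.537, in genes with H3K4me3 in all lines but TTF4, and 0.309 and 0.313 in those with it in PTC12 alone and TTF1 alone.

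**Figure D3:**
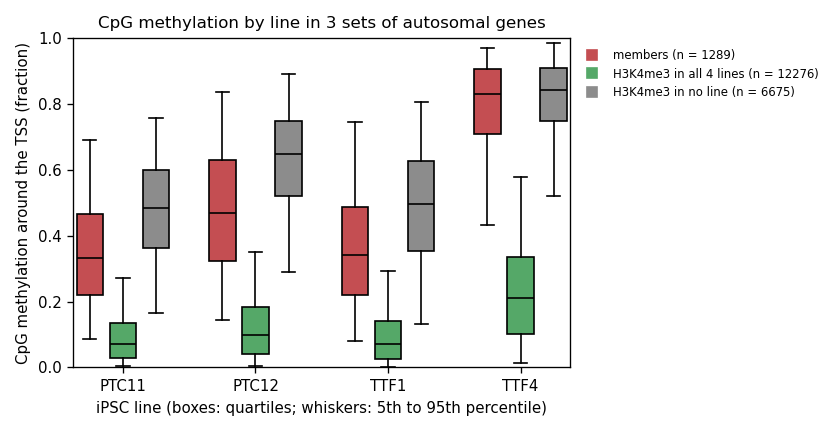
CpG methylation around the TSS as a fraction (vertical axis) in each iPSC line (horizontal axis) for the 1289 genes with H3K4me3 in PTC12 and TTF1 alone, 12276 genes with H3K4me3 in all 4 lines and 6675 genes with it in no line. Boxes give the quartiles with the median, and whiskers reach from the 5th to the 95th percentile. The median of the first set in TTF4, 0.831, lies beside that of genes without H3K4me3, 0.842.

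Methylation in TTF4 was compared within ranges of the mean of the other lines. The gap between sets was present in the low ranges and small or absent in the high ones. Where the mean of PTC11, PTC12 and TTF1 was at most 0.2, the median in TTF4 was 0.665 in 161 of the genes described here, 0.187 in 10684 genes with H3K4me3 in all lines and 0.348 in 185 genes with it in none. The same range gave 0.762 in 295 genes that lacked H3K4me3 in TTF4 alone. Within it, the mean of the other lines had medians of 0.155, 0.0733, 0.121 and 0.137 in the same order of sets. In the range from 0.2 to 0.4 it had medians of 0.317, 0.244, 0.342 and 0.280. The sets were thus not matched within a range, and the part of this in the gap was not tested. From 0.2 to 0.4, the TTF4 medians were 0.805, 0.415, 0.777 and 0.843 in the same order. From 0.4 to 0.6, which held 391 of the genes described here, they were 0.852, 0.787, 0.840 and 0.869. Above 0.6, with 187 of the genes, they were 0.895, 0.901, 0.869 and 0.867. In 271 genes (21%) the fraction was under 0.4 in PTC11, PTC12 and TTF1 and over 0.6 in TTF4, a pattern found in 2.23% of genes with H3K4me3 in all lines and 52.3% of genes lacking it in TTF4 alone. Genes that lacked H3K4me3 in PTC11 alone had a TTF4 median of 0.419 and a PTC11 median of 0.195.

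Single genes show the spread. Lox, the enzyme that crosslinks collagen, had a methylation of 0.0944 for PTC11, 0.0823 for PTC12, 0.164 for TTF1 and 0.986 for TTF4. Pcsk1, a protease that processes prohormones, had 0.132, 0.375, 0.0668 and 0.975 in the same order, so that TTF4 stood apart from the other lines in both genes. Nobox, an oocyte transcription factor, instead had 0.754, 0.551, 0.00980 and 0.940, with TTF1 alone near 0. In AC162449.1 and AC139063.1 too, which complete the 5 widest ranges, TTF4 was the highest line.

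A total of 12 genes (0.931%) had a fraction under 0.2 in all 4 lines, against 43.1% of genes with H3K4me3 in all lines. Among them Ncrna00085, Arrdc3, Iqsec1 and Agrp had, with Eif4enif1, the lowest means. Arrdc3, an alpha-arrestin, had 3.42 RPKM of H3K4me3 in PTC12 and 3.37 RPKM in TTF1, with methylation of 0.0428, 0.00513, 0.0151 and 0.0374 in PTC11, PTC12, TTF1 and TTF4. At the opposite end, 58 genes (4.50%) exceeded 0.6 in every line, against 8.28% of genes without H3K4me3. Celf2, a splicing regulator, had 3.10 and 2.97 RPKM in PTC12 and TTF1 with methylation of 0.808, 0.857, 0.778 and 0.926. The window of the H3K4me3 peaks is wider than that of the methylation, and whether the peak overlapped the methylated CpGs was not tested. The other genes with the highest means were AL645948.1, Usp14, Rpl15-ps3 and Stxbp3b.

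Across the 1289 genes, the mean H3K4me3 of PTC12 and TTF1 went down with the mean methylation of PTC11, PTC12 and TTF1 (Spearman's rho = -0.45) and less with that of TTF4 (rho = -0.20). CpG number within 1 kb of the TSS had a rho of 0.38 with H3K4me3, -0.27 with the methylation of those 3 lines and 0.05 with that of TTF4. These are correlations over genes that share libraries and are given as a description. The median number of CpGs in the window was 45, with quartiles of 34 and 58, against 96 in genes with H3K4me3 in all lines and 21 in genes with it in none. The ratio of observed to expected CpGs was 0.364, 0.649 and 0.199 in the same order.

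The 2 origins were compared with limma over all 50657 genes with methylation in every line, with each fraction centred on its own line. Of the 1289 genes, 0 were called between TTF and PTC iPSC at an adjusted p under 0.05, against a background of 0.00395% of genes. At an unadjusted p under 0.05 limma gave 65 (5.04%) against a background of 4.72%, and 56 of these were higher in TTF (4.34%, background 2.46%). On fractions as deposited, limma gave 11 at an unadjusted p under 0.05, all higher in TTF (0.853%, background 1.8%), so that the share went from above to below the background with the scaling. The gene with the lowest p, Zp3, an egg coat protein named here after its values were seen, was higher in TTF by 0.462 (SE 0.143, n = 2 lines per origin) with a limma adjusted p of 0.526. With TTF1 left out, so that TTF4 stood alone against the PTC lines and was assumed to vary like them, 66 of the genes were called (5.12%, background 2.01%), 64 of them higher in TTF4 (4.97%, background 1.44%). With TTF4 left out, 1 was called (0.0776%, background 0.448%). In the deposited fractions, TTF1 and TTF4 both exceeded PTC11 and PTC12 in 258 genes (20.02%, background 20.5%) and both fell short of them in 13 (1.0%, background 3.36%). After centring, these counts were 328 (25.4%, background 15%) and 91 (7.06%, background 12.8%).

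The genes belonged to many classes, set by gene symbols, with 674 (49.8%) in none of the 19 classes. Of the genes of a class that had H3K4me3 in PTC12 and TTF1, the share without a value in PTC11 and TTF4 was 12 of 16 (75%) among keratins and cornified envelope proteins and 8 of 14 (57.1%) among olfactory and vomeronasal receptors. It was 28.3% among proteases and their inhibitors, 22.0% among microRNA genes, 18.5% among immune surface and interferon genes and 17.4% among matrix and adhesion proteins. Zinc finger proteins (2.51%), ribosomal protein genes (3.87%) and developmental transcription factors (5.98%) were among the classes under the 8.63% of all genes. Taken over all autosomal genes of a class with H3K36me3, the share was 12 of 115 (10.4%) for keratins and cornified envelope proteins. For olfactory and vomeronasal receptors it was 8 of 274 (2.92%), under the 5.32% of all 25434 such genes. H3K4me3 in every line was found for 3 keratin and 2 olfactory receptor genes. Predicted genes with Gm names made up 25% of the 1353 and 4.78% of genes with H3K4me3 in all lines. They numbered 2334 of the 7320 genes with H3K4me3 in no line and 4382 of all 25434 autosomal genes with H3K36me3.

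**Figure D4:**
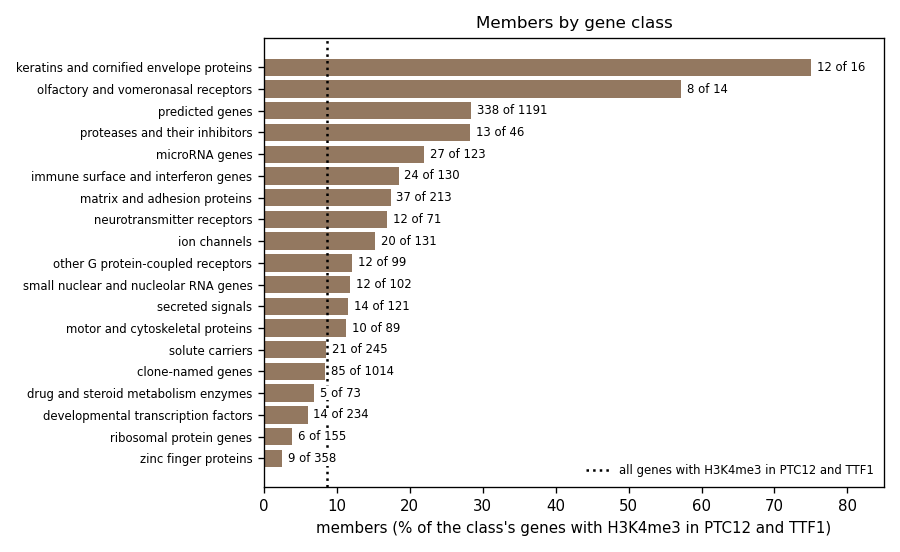
Percent of the genes of each class with H3K4me3 in PTC12 and TTF1 that had no value in PTC11 and TTF4 (horizontal axis), with the number of such genes beside each bar. The dotted line marks 8.63% over all genes, and keratins (75%) and zinc finger proteins (2.51%) have the highest and lowest shares.

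Ion channels, neurotransmitter receptors and other G protein-coupled receptors, with 15.3%, 16.9% and 12.1% of their genes with H3K4me3 in PTC12 and TTF1 among the genes described here, lay above the 8.63% of all genes. The 20 ion channel genes had a median of 3.33 RPKM and median methylation of 0.264, 0.305, 0.251 and 0.663 in PTC11, PTC12, TTF1 and TTF4, with TTF4 highest in all 20. Kcnf1, a potassium channel subunit, had 4.80 RPKM in PTC12 and 4.16 RPKM in TTF1 and methylation of 0.157, 0.378, 0.172 and 0.623. The 12 neurotransmitter receptor genes included Gria2, an AMPA glutamate receptor subunit, and the dopamine receptors Drd1a and Drd4. TTF4 was the most methylated line in all 12, with a median of 0.727, as it was in the 12 other G protein-coupled receptor genes, with a median of 0.831. Avpr1a, the vasopressin receptor, had methylation of 0.136, 0.169, 0.157 and 0.886.

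The 37 matrix and adhesion genes, led by Itga4, an integrin chain, Fbln7 and Cntn5, had a median methylation of 0.790 in TTF4 and 0.297 in PTC11, and TTF4 was highest in 31. The 12 keratin and cornified envelope genes had a median H3K4me3 of 2.32 RPKM and a median methylation of 0.503 in PTC11, with TTF4 highest in 9. Krt17 had 3.91 RPKM in PTC12 and 3.32 RPKM in TTF1, and methylation of 0.478, 0.191, 0.283 and 0.841. Among 24 immune genes, TTF4 was the highest line in all, including Cd34, a surface protein of blood progenitors, at 0.271, 0.157, 0.309 and 0.804, and Il20ra, an interleukin receptor chain. Secreted signals numbered 14, among them the chemokine Cxcl16, Wnt2 and the growth factor Pdgfd. Of 27 microRNA entries, the 25 with methylation in every line had a median of 0.860 in TTF4, and the 9 zinc finger genes one of 0.755.

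Germline genes have CpG-rich promoters that somatic cells keep methylated, and they serve meiosis and the piRNA pathway, which silences transposons. Of 30 autosomal genes in a germline list that was drawn up with earlier results known, 13 belonged to the genes described here, 8 had H3K4me3 in PTC12 alone, 2 in TTF1 alone, 2 in all lines but TTF4, 4 in all lines and 1 in none. Of the 19 list genes with H3K4me3 in PTC12 and TTF1 these 13 were without a value in PTC11 and TTF4. Of all such genes the share was 8.63%, and it was 58.1% at a mean of 2 to 3 RPKM and 21.9% at 3 to 4 RPKM. The 1353 genes made up 5.32% of all 25434 autosomal genes with H3K36me3. Because the list was drawn up with results known, its counts are a description and are not set against these shares. The list thus had a value in 27 genes in PTC12, 21 in TTF1, 6 in PTC11 and 4 in TTF4. In the 13 genes, H3K4me3 ranged from 2.43 to 4.11 RPKM as the mean of PTC12 and TTF1, with a median of 67 CpGs within 1 kb of the TSS. Methylation in TTF4 ranged from 0.739 to 1.00 with a median of 0.904 and was the highest of the lines in all 13, while medians in PTC11, PTC12 and TTF1 were 0.334, 0.541 and 0.396.

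Synaptonemal complex genes were Sycp1, Sycp3 and Syce1. Sycp3, a lateral element protein, had 3.15 RPKM in PTC12 and 3.32 RPKM in TTF1, and methylation of 0.163 for PTC11, 0.678 for PTC12, 0.433 for TTF1 and 0.904 for TTF4. PTC11, without an H3K4me3 value, was thus the least methylated line at this gene. Genes of the piRNA pathway were Piwil2, Mov10l1, Tdrd1, Mael and Ddx4. Ddx4, an RNA helicase, had 2.94 RPKM in PTC12 and 3.08 RPKM in TTF1 with methylation of 0.30, 0.515, 0.227 and 0.982, and Mov10l1 was above 0.6 in every line, from 0.668 to 0.932. The meiotic genes Hormad1 and Smc1b, the RNA-binding Dazl, and Stk31 and Rpl10l completed the 13. Dazl had methylation of 0.454, 0.646, 0.631 and 0.897.

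**Figure D5:**
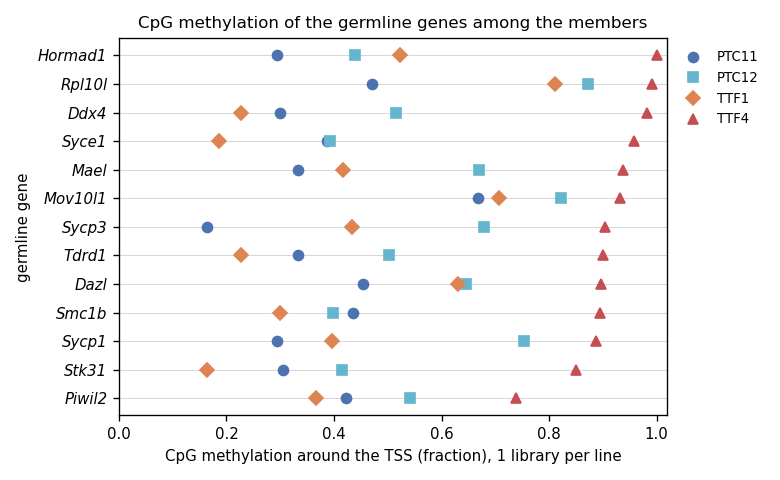
CpG methylation around the TSS as a fraction (horizontal axis) of the 13 germline genes with H3K4me3 in PTC12 and TTF1 alone, with 1 point per iPSC line. TTF4 lies at 0.739 or above and to the right of the other lines for each gene, while PTC11 and TTF1 share the lower range.

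Markers were counted to check the labels. None of 15 pluripotent cell markers was among the genes described here, and 14 had H3K4me3 in PTC11, PTC12 and TTF1 and 11 in TTF4, among them Pou5f1, Nanog and Sox2 in every line. Dppa4, Dppa5a and Zfp42 had no value in TTF4, and Esrrb had none in any line. Of 14 fibroblast and feeder cell markers 2 were, Pdgfrb, a growth factor receptor, and Col6a1, a collagen chain. The summed H3K4me3 of those markers was 12.5 RPKM for PTC11, 33.9 RPKM for PTC12, 35.3 RPKM for TTF1 and 21.4 RPKM for TTF4, with values at 4, 9, 9 and 6 of the 14 markers and none in any line at Col3a1, Postn, Lum, Dcn and S100a4. The part of feeder cells in the H3K4me3 of the genes described here was not tested, and fewer cells with the mark cannot be told apart from less of the mark per cell. None of the 14 proximal tubule markers or of the 14 autosomal housekeeping genes listed was among them. H3K4me3 in both PTC12 and TTF1 was found for 2 of those tubule markers and 9 of the fibroblast and feeder cell markers. All 14 housekeeping genes had a value in PTC11 and so could not belong to the genes described here. The 1353 genes made up 5.32% of all 25434 autosomal genes with H3K36me3. The marker lists are too short to set their counts against that share.

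H3K36me3 over the gene body was present in 1336 of the 1353 genes for PTC11, 1049 for PTC12, 1114 for TTF1 and 891 for TTF4. The lines without an H3K4me3 value thus had both the most and the fewest, an order of lines also found over all 25434 autosomal genes with H3K36me3. The shares were 98.7%, 77.5%, 82.3% and 65.9% in PTC11, PTC12, TTF1 and TTF4, against 96.8%, 78.0%, 79.3% and 69.2% of all those genes. In genes with H3K4me3 in all lines they were 99.7%, 93.3%, 89.8% and 84.1%. The medians were 1.58, 3.65, 1.14 and 3.92 RPKM in PTC11, PTC12, TTF1 and TTF4, and those of genes with H3K4me3 in all lines were 1.73, 4.36, 1.26 and 4.28 RPKM. Both sets were higher in PTC12 and TTF4, a pairing of lines other than that of the H3K4me3 values.

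The highest H3K36me3 was found in Trh, Cdkn1c, Nap1l5, Dnajb3 and AC084071.1. Cdkn1c, an imprinted inhibitor of the cell cycle, had 2.54, 10.3, 1.14 and 10.1 RPKM of H3K36me3 in PTC11, PTC12, TTF1 and TTF4, next to methylation of 0.0487, 0.0371, 0.0764 and 0.679. Nap1l5, another imprinted gene, had 1.63, 10.9, 1.21 and 9.40 RPKM of H3K36me3, and its start was methylated at 0.694, 0.877, 0.432 and 0.895. H3K36me3 of both was high in TTF4, a line with methylated starts and no H3K4me3 value. Trh, the precursor of thyrotropin-releasing hormone, had 1.38, 14.0, 1.0 and 6.20 RPKM in the same order. Between origins, limma on log2(RPKM + 1) called 0 of 771 of the genes with H3K36me3 in every line (background 0.112%), and an unadjusted p under 0.05 was found for 5 (0.649%, background 0.681%).

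H3K27me3 was listed at 15 entries, of which 14 were above 0. A value was listed for 6 in the first PTC11 library, 8 in the second, 5 in TTF1 and 0 in TTF4, and those above 0 ranged from 1.27 to 4.43 RPKM. The share of all genes with an H3K27me3 value is not given for these libraries, so the counts cannot be read as a trait of the genes described here. They held the homeobox genes Hoxb1, Hoxb6, Hoxd12 and Evx2, the Dlx1 antisense transcript Dlx1as, and Shh, the signal that patterns limb and neural tube. Shh had the highest value, 4.43 RPKM in the first PTC11 library and none in the second, with H3K4me3 of 2.68 RPKM in PTC12 and 4.49 RPKM in TTF1 and methylation of 0.245, 0.501, 0.262 and 0.168. TTF4 was not the most methylated line at Shh, nor at Hoxb6, where the fractions were 0.115, 0.113, 0.20 and 0.138. Insl3 (Leydig cell hormone) and Hoxd12 had TTF4 fractions of 0.862 and 0.551. Mir196a-2, which is entered under 2 identifiers, and A930033C23Rik, AC119275.1, Gm11535, Gm13429, Gm4895 and 5S_rRNA were the remaining entries.

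Some of the 1353 genes were not independent. Because peaks were averaged in a window, 124 genes shared their pair of H3K4me3 values with another on the same chromosome, which left 1289 distinct pairs. A TSS of another listed gene lay in the window of 242 genes, one with the same pattern in 162 and one with H3K4me3 in all lines in 28. By chromosome, the share of genes with H3K4me3 in PTC12 and TTF1 that lacked it in PTC11 and TTF4 ranged from 5.98% on chromosome 19 to 11% on chromosome 6.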

How the data were processed

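ChIP-seq and nanopore CpG methylation were analysed in 2 PTC iPSC and 2 TTF iPSC lines (16 libraries, every per-sample column used). The authors aligned reads to mm10 (Bowtie2 2.1.0), called peaks against input (MACS2 2.0.10), counted reads (bedtools 2.17.0) and deposited, per gene, RPKM minus input averaged over peaks. They deposited methylation as the fraction of methylated calls per gene (minimap2 2.17-r941, SAMtools 1.3.1). The tables hold no counts or coverage, so mapped depth is unknown and precision rests on the spread between lines.

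The genes were selected on H3K4me3, which received no test, and on the presence of H3K36me3 in any line, a criterion that does not use the contrast of origins tested for H3K36me3. The genes, classes and lists were chosen with earlier results of these data known. Tables were joined by Ensembl identifier. CpGs within 1 kb of each TSS were counted in GRCm38 (mm10), and gene types were taken from GENCODE M21. TTF and PTC iPSC were compared with limma 3.58.1 (R 4.3.3; a linear model with moderated variances that follow the mean level, two-sided) on centred fractions and on log2(RPKM + 1), with Benjamini-Hochberg adjustment over all genes tested. The step was run on simulated data, where recovery was required only at a spread tighter than that of these lines. Recovery at the real spread is not given here, so the absence of calls does not show that the origins were alike. Cells came from littermates, and the paper refers to independent animal replicates for methylation without naming the animal of each line. The p-values thus measure the spread between lines, in which clone and animal cannot be told apart. The paper did ChIP in duplicates, while the H3K4me3 and H3K36me3 values used here are of 1 library per line. Named genes, leaving out Gm, Mir and Rik names, were the 8 highest and 4 lowest for H3K4me3, the 5 highest, 5 lowest and 5 widest in methylation, the 5 highest for H3K36me3, every gene with H3K27me3, limma calls and the 3 highest per class and list. Sequences, Zp3, other germline members and other names beyond these were picked after values were seen.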

Additional observations from a re-analysis of the deposited data

How the results depend on the processing

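The number of genes stayed within 1.5-fold of 1353 under each of 6 alternatives, from 1224 with at least 1 RPKM in PTC12 and TTF1 to 1588 with XLOC loci. Their median H3K4me3 of 2.89 RPKM ranged from 2.83 RPKM without TTF1 to 2.89 RPKM without PTC12. Their median methylation of 0.491 moved by less than the spread between lines in every alternative, from 0.383 without TTF4 to 0.544 without PTC11. Calls by limma between origins varied with the setting, and a line left alone in its origin was assumed to vary like the others. For methylation, 2 genes were called, 0 on fractions as deposited (1006 at an unadjusted limma p under 0.05), 1 without a variance trend and 9 among autosomal genes. Leaving out 1 line gave 0 (PTC12, with 1786 at an unadjusted p under 0.05), 5 (PTC11), 227 (TTF4) and 1020 (TTF1) calls, so that the range was 0 to 1020. For H3K36me3, 19 genes were called, 44 with a pseudocount of 0.1 RPKM, and 0 with quantile normalization, with a mean of at least 1 RPKM or without a variance trend, where 502, 4 and 4 genes had an unadjusted limma p under 0.05. Leaving out 1 line gave 1 (TTF4) to 31 (PTC11) calls, with 8 without TTF1. The cause was not tested. Of the genes described here, 1 was called for H3K36me3 without PTC11 and 1 without PTC12. No paired analysis was possible because the PTC and TTF lines share no line numbers. The mapped depth of the libraries is unknown, and its part in low H3K4me3 values was not tested.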
